A study of Mus musculus with 6 samples.

Results

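Transcripts of 9 CC chemokine ligands, Ccl2, Ccl3, Ccl4, Ccl5, Ccl6, Ccl7, Ccl9, Ccl12 and Ccl17, were followed in immune cells of mouse brain during the first hours after an experimental stroke. The members were taken by symbol, and each of the 9 symbols matched 1 row among the 31053 genes listed in the deposited matrices. A further count of symbols made of Ccl and a number found 30 such genes in all. The tissue was made ischemic by a filament that closed the middle cerebral artery from the right internal carotid for 60 min, after which flow was restored. Living CD45-positive cells were then sorted and sequenced in droplets from the 3′ ends of their transcripts, and CD45 is the surface protein that marks both blood-derived immune cells and microglia. The 6 groups were Cd300a-fl/fl Lyz2-cre mice left naive, at 1 h and at 3 h after reperfusion, and Cd300a-fl/fl mice left naive, at 1 h and at 3 h after reperfusion. They are called Lyz2-cre and fl/fl below.

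All mice were C57BL/6 and carried Cd300a alleles flanked by loxP sites, the controls included, and only the Lyz2-cre mice also carried Cre at the Lyz2 locus, which is active in myeloid cells. Each group was 1 library made from the pooled cells of 3 brains. No animal or second library repeats a group, so differences between groups were tested across 2 libraries per time or 3 per genotype. The p-values set each difference only against how far these 6 libraries depart from additive effects of genotype and time. That spread may be technical. Naive mice had no occlusion according to the sample titles, while the series text counts them as 0 h. The hemisphere that was taken is not given in the sources used here.

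CC chemokines are small secreted proteins that bind receptors on leukocytes and direct their movement. In injured brain, microglia, macrophages at the brain's borders and infiltrating blood cells all make them, and the receptors on monocytes, neutrophils and lymphocytes decide which cells follow. Ccl2, Ccl7 and Ccl12 attract monocytes through Ccr2; Ccl3 draws myeloid cells and lymphocytes, in part through Ccr1, and Ccl4 is its close relative. Ccl6 and Ccl9 are rodent ligands of Ccr1, Ccl5 is a product of NK and T cells that binds Ccr1 and Ccr3 among others, and Ccl17 is a dendritic cell product that binds Ccr4.

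On the GRCm38 build 8 of the 9 genes lie on chromosome 11, in 2 groups separated by 1422377 bases. Ccl2 (chr11:82035571-82037453), Ccl7 (chr11:82045712-82047525) and Ccl12 (chr11:82101845-82103400), all on the plus strand, form the first group. Ccl5 (chr11:83525778-83530518), Ccl9 (chr11:83572919-83578636), Ccl6 (chr11:83587882-83593087) and Ccl3 (chr11:83647844-83649355) on the minus strand and Ccl4 (chr11:83662584-83664683) on the plus strand form the second. Ccl3 and Ccl4 are 13228 bases apart and Ccl2 and Ccl7 8258 bases. Ccl17 lies on chromosome 8 (chr8:94810453-94812036, plus strand). All 9 are protein coding. The longest exact run that a member's transcripts share with those of another CC ligand gene is 25 bases, between Ccl6 and Ccl9, and the other members share at most 23.

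Promoter sequences matched for 5 of the 9 members in the RefSeq promoter table, which is on GRCm38.p6 and holds 250 bases before to 50 bases after each gene's start. The 4 printed here belong to ligands tested in microglia-like cells. There Ccl3 and Ccl9 rose at each step, Ccl12 was lowest at 1 h and Ccl6 was highest at 1 h. Capitals mark motif matches on either strand, found by letters: AP-1 (TGANTCA), C/EBP (TTNNGCAA), PU.1/ETS (AGGAAGT), the interferon response core (GAAA, any 2 bases, GAAA), the TATA box (TATAAA) and, by name alone, the NF-kB consensus.
Ccl3, chr11:83649329-83649628, minus strand: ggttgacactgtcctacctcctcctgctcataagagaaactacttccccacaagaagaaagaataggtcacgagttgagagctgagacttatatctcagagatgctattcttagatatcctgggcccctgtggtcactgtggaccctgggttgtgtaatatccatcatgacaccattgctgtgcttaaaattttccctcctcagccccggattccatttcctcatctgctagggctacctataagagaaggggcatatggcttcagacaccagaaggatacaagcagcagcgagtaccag
Ccl12, chr11:82101595-82101894, plus strand: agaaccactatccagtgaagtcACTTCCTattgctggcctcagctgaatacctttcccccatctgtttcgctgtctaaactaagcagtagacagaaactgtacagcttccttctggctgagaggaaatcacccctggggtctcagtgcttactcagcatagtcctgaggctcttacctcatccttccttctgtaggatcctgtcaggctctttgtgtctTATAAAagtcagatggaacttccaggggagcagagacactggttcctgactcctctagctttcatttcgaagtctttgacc
Ccl9, chr11:83578587-83578886, minus strand: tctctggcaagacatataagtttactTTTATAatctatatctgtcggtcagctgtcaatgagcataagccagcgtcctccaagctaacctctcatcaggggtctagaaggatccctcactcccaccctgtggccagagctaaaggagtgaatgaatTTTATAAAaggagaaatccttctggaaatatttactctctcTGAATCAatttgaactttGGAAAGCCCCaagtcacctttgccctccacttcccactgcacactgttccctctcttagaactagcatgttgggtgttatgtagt
Ccl6, chr11:83593038-83593337, minus strand: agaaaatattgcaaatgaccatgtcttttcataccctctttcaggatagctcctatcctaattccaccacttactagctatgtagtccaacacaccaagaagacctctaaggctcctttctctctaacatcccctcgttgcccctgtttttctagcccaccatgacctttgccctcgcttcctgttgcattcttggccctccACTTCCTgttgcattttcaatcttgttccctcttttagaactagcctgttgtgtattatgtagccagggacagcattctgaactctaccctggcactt

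The Ccl12 window holds a PU.1/ETS match on the minus strand of the window and a TATA box that starts 31 bases before the start. In the Ccl9 window an NF-kB match on the minus strand of the window ends 26 bases before the start, an AP-1 match lies just before it, and of 3 TATA box matches 1 on the plus strand of the window starts 92 bases before the start and 2 on its minus strand reach 94 and 224 bases before it, the first 2 overlapping. In the Ccl6 window a PU.1/ETS match on the minus strand of the window covers the bases from 48 to 42 before the start. The Ccl3 window and that of Ccl17 hold none of these letters, which says nothing of the factors that act there. Among 32851 promoters of the same length, 8.459% hold the NF-kB consensus, 7.808% the AP-1 letters, 10.80% the C/EBP letters, 9.351% the PU.1/ETS letters, 3.443% the interferon response core and 13.62% the TATA box. The matches were not tied to the levels below by any test.

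The libraries held 51005 barcodes with 250981160 UMIs (unique molecular identifiers, each counting 1 captured transcript end), between 35479437 and 48478866 a library. After filtering, 47108 cells remained with a median of 3896 to 5220 UMIs in each library, 3557 having been removed as likely doublets by score. Of 50699 distinct barcodes 305 occurred in 2 or more libraries, 269 among kept cells. Ptprc, which encodes CD45, had a UMI in 66.6% to 82.3% of kept cells. Cells were clustered without any Ccl gene and each cluster was named only from its markers, so "microglia-like" and the like mean clusters that passed that rule: 37219 microglia-like (79.0%), 3890 neutrophil-like, 2314 monocyte-like, 1188 T-cell-like, 876 B-cell-like, 519 NK-cell-like, 287 conventional dendritic cell-like (cDC-like), 197 border-associated macrophage-like and 435 unnamed cells, with 5 smaller classes.

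The targeted gene, Cd300a, was at 12.6, 11.1 and 9.60 UMIs per 1000000 of the class (CPM) in Lyz2-cre neutrophil-like cells (naive, 1 h and 3 h), against 165, 243 and 126 CPM in fl/fl neutrophil-like cells (log2 fold change -3.87 ± 0.24 (SE), edgeR adjusted p = 7.07e-05). The microglia-like values were 136.5, 170 and 163 CPM in Lyz2-cre, against 173, 211 and 206 CPM in fl/fl libraries (-0.38 ± 0.06, edgeR adjusted p = 0.0312). Monocyte-like cells were at 195, 131 and 85.2 CPM in Lyz2-cre, against 375, 424 and 184 CPM in fl/fl. A Cd300a UMI was found in 60.0%, 46.0% and 33.0% of Lyz2-cre monocyte-like cells, against 92.2%, 87.2% and 69.4% of fl/fl ones. The sources used here do not say which exons lie between the loxP sites, and 3′ ends do not show which exons a transcript holds. Lyz2 itself was at 0.295 to 0.657 CPM in Lyz2-cre microglia-like cells, against 198 to 234 CPM in fl/fl, so loss of Cd300a and loss of Lyz2 cannot be told apart in any genotype comparison.

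Over all kept cells the 9 ligands summed to 1222922 UMIs. Ccl4 had 487425 of them and Ccl3 373737, followed by Ccl12 with 101189, Ccl6 with 85451, Ccl5 with 72208, Ccl9 with 54402, Ccl2 with 38919, Ccl7 with 7126 and Ccl17 with 2465. Each UMI is 1 transcript end, so these counts and the CPM below are not divided by transcript length. Summed over the 9 ligands, the level was 2620, 2878 and 8007 CPM of the kept UMIs in the Lyz2-cre naive, 1 h and 3 h libraries, against 3563, 4730 and 11588 CPM in the fl/fl libraries. At 3 h the sum was the highest of the 3 times in both genotypes.

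Microglia-like cells held most UMIs of 6 of the 9 ligands: 95.3% of Ccl3 (95% Clopper-Pearson interval 95.2 to 95.3), 94.5% of Ccl12 (94.4 to 94.7), 93.6% of Ccl4 (93.5 to 93.7), 82.3% of Ccl2 (82.0 to 82.7), 66.4% of Ccl9 (66.0 to 66.8) and 59.8% of Ccl7 (58.7 to 61.0). Neutrophil-like cells held 37.2% of Ccl6 (36.9 to 37.5), NK-cell-like cells 57.7% of Ccl5 (57.3 to 58.0) and cDC-like cells 93.6% of Ccl17 (92.6 to 94.5). These intervals, and the Poisson intervals of CPM below, cover counting error only. A class's share depends on its number of cells as well as on its level, and the sort and gradient set how many cells of each class were counted. Microglia-like cells were 79.0% of kept cells, above their shares of Ccl9 and Ccl7. The median Ccl7 level over the libraries was 14.8 CPM in microglia-like and 1498.5 CPM in border-associated macrophage-like cells. For Ccl9 it was 184 CPM in microglia-like and 389 CPM in monocyte-like cells.

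**Figure D1:**
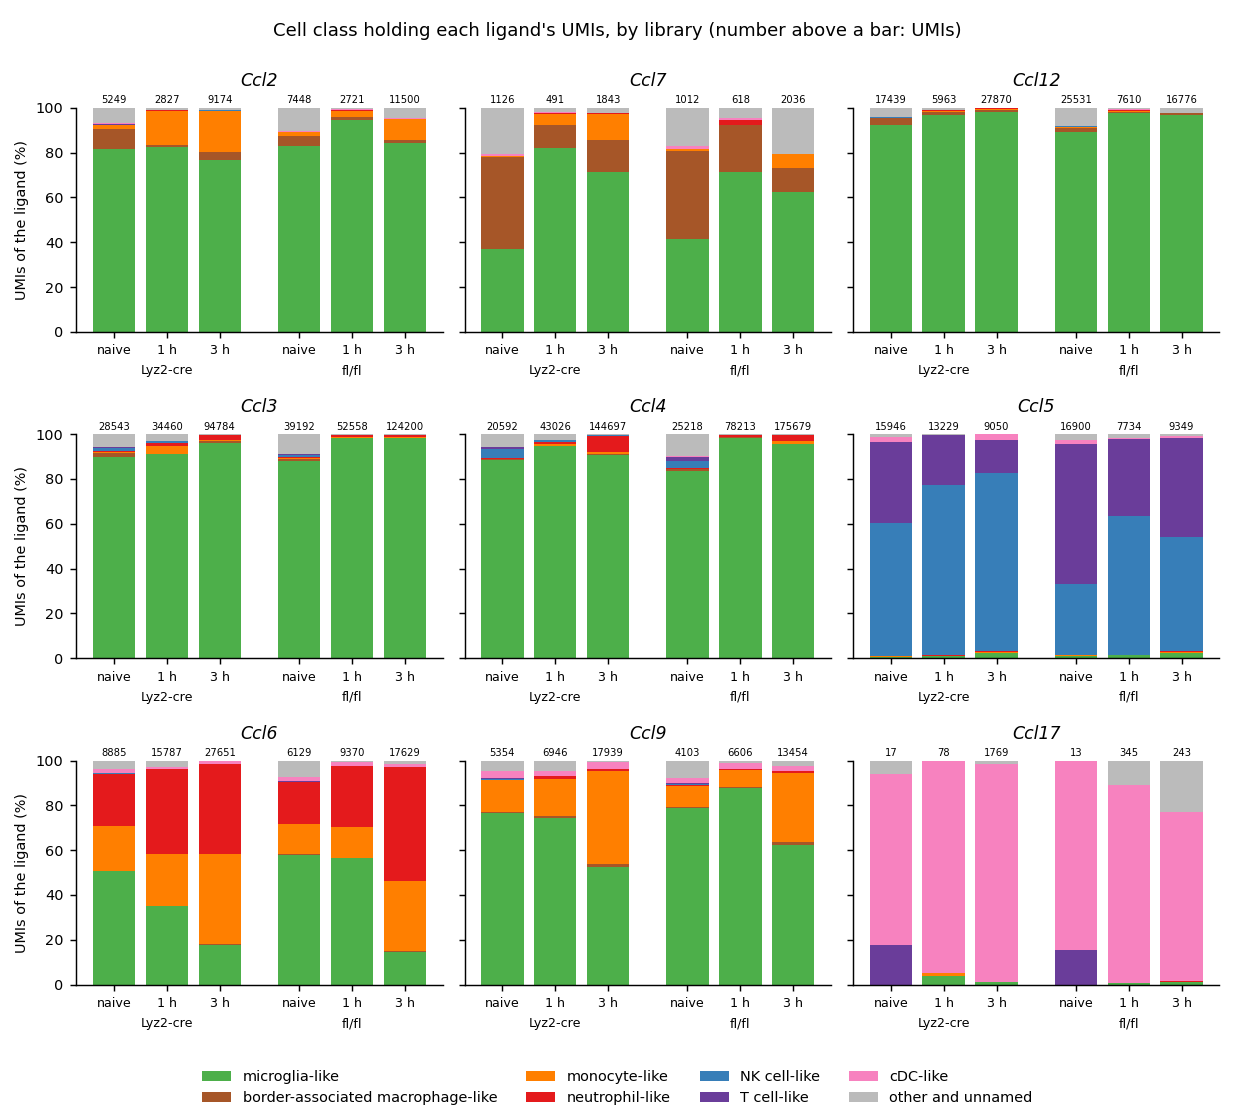
Share of each ligand's UMIs (vertical axis, percent) by cell class in the 6 libraries, Lyz2-cre at left and fl/fl at right in each panel, with the number of UMIs above each bar. Ccl3, Ccl4 and Ccl12 are mostly microglia-like in every library, Ccl6 and Ccl9 have larger monocyte-like shares at 3 h than in naive brain, Ccl6 also a larger neutrophil-like share, Ccl5 divides between NK-cell-like and T-cell-like cells, and Ccl17 is mostly cDC-like, on 17 and 13 UMIs in the naive libraries.

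Ccl2, which draws monocytes through Ccr2, was at 140, 80.5 and 239 CPM in Lyz2-cre microglia-like cells at naive, 1 h and 3 h, against 224, 84.0 and 465 CPM in fl/fl. In each genotype the 1 h library was the lowest and the 3 h library the highest. The rise from 1 h to 3 h was 1.99 ± 0.30 on the log2 scale (SE, n = 2 libraries per time, edgeR adjusted p = 0.0144), while neither 1 h against naive (-0.97 ± 0.29, edgeR adjusted p = 0.102) nor 3 h against naive (1.01 ± 0.29, edgeR adjusted p = 0.0643) passed. DESeq2 called both of these, and so did edgeR when either 1 h library was left out. With no filter on low counts the 3 h against 1 h call was lost (edgeR adjusted p = 0.0664).

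Monocyte-like cells came to hold part of Ccl2. Their share of the library's Ccl2 UMIs was 1.58%, 14.9% and 18.5% in the Lyz2-cre naive, 1 h and 3 h libraries, against 1.64%, 2.35% and 9.53% in the fl/fl libraries. These cells numbered 270, 428 and 806 in Lyz2-cre and 129, 172 and 509 in fl/fl, and both their number and their Ccl2 level enter the shares. Their level was 36.7, 123 and 245 CPM in Lyz2-cre, against 110, 56.1 and 216 CPM in fl/fl, and the 3 h rise over naive did not pass (1.95 ± 0.57, edgeR adjusted p = 0.066). At 3 h nearly all of it, 99.5% in Lyz2-cre and 98.2% in fl/fl, came from cluster 13, led by Fn1, Vcan and Ccr2, at 280.5 and 250 CPM. Cluster 17, led by Ace and Treml4, was at 8.89 CPM in Lyz2-cre and 26.9 CPM in fl/fl. Microglia markers in monocyte-like cells summed to between 435 and 3317 CPM over the 6 libraries, and their part in these levels was not tested.

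Ccl7, a relative of Ccl2 that also binds Ccr1 and Ccr3, was the member most concentrated in border-associated macrophage-like cells. These 197 cells, 21 to 49 a library, held 41.1%, 10.4% and 14.1% of the library's Ccl7 UMIs in Lyz2-cre and 38.9%, 20.9% and 10.7% in fl/fl. Their level was 1502, 266 and 1710 CPM in Lyz2-cre, against 1707, 1078 and 1496 CPM in fl/fl, lowest at 1 h in both genotypes. Ccl2 in the same cells was at 1553, 182 and 2145 CPM in Lyz2-cre, against 1447, 334 and 1029 CPM in fl/fl, and Ccl12 was also lowest at 1 h, at 380 CPM in Lyz2-cre and 518 CPM in fl/fl. With 1 library a group this class was not tested. Cells that matched no class held another 20.4% of Ccl7 in the Lyz2-cre naive library and 17.1% and 20.4% in the fl/fl naive and 3 h libraries, and over all libraries 53.1% of the Ccl7 UMIs of such cells lay in a cluster of 55 cells led by Retnla and Ccl7 and 38.3% in 1 of 127 cells led by Ccl12.

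In microglia-like cells Ccl7 was low, at 13.7, 13.9 and 44.7 CPM in Lyz2-cre and 15.3, 14.4 and 60.8 CPM in fl/fl. The 3 h libraries stood above all others, and the rise over naive of 1.94 ± 0.12 on the log2 scale (edgeR adjusted p = 3.68e-06) and over 1 h of 1.86 ± 0.12 (edgeR adjusted p = 1.05e-05) held under all 13 alternatives. Border-associated macrophage markers in microglia-like cells summed to between 15.4 and 24.8 CPM over the 6 libraries, at 24.6 CPM in Lyz2-cre and 18.5 CPM in fl/fl at 3 h, and their part was not tested. B-cell-like cells held no Ccl7 UMI in any library, where 3 counts would be 2.83 to 10.5 CPM. In monocyte-like cells Ccl7 had 4, 23 and 221 UMIs in Lyz2-cre and 10, 0 and 129 UMIs in fl/fl. Its monocyte-like rise at 3 h over naive (2.95 ± 0.73, edgeR adjusted p = 0.0331) and over 1 h (2.79 ± 0.66, edgeR adjusted p = 0.0362) was lost by DESeq2 (DESeq2 adjusted p = 0.55 and 0.372), with no filter on low counts (edgeR adjusted p = 0.243 and 0.244) and without either 3 h library, with edgeR adjusted p up to 0.46 and 0.576, and the first also without the Lyz2-cre naive library (edgeR adjusted p = 0.191).

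Ccl12, a Ccr2 ligand known from mouse, was present in many naive microglia-like cells and had its lowest level at 1 h. Its level was 528, 199 and 930 CPM in Lyz2-cre, against 827, 242 and 781 CPM in fl/fl. The 1 h libraries were the lowest of each genotype (-1.49 ± 0.21 on the log2 scale against naive, edgeR adjusted p = 0.00952), and the 3 h libraries stood above them by 1.95 ± 0.22 (edgeR adjusted p = 0.00214). Without the Lyz2-cre 1 h library these adjusted p were 0.194 and 0.0897 in edgeR, and without the fl/fl 1 h library 0.189 and 0.0804, and with no filter on low counts the first was 0.0769. At 3 h against naive the libraries of the genotypes went opposite ways, 1.76-fold in Lyz2-cre and 0.944-fold in fl/fl, and the joint change was not called (0.46 ± 0.21, edgeR adjusted p = 0.141).

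Fewer cells carried Ccl12 at 3 h than in naive brain. After thinning every cell to 2000 UMIs, 41.8%, 22.4% and 30.1% of Lyz2-cre microglia-like cells had a Ccl12 UMI, against 50.1%, 21.3% and 28.9% of fl/fl cells. Without thinning the shares were 61.6%, 35.6% and 39.6% in Lyz2-cre and 66.2%, 34.0% and 39.2% in fl/fl. The top 10% of microglia-like cells held 52.6%, 63.0% and 86.3% of the class's Ccl12 UMIs in Lyz2-cre and 51.7%, 73.1% and 84.5% in fl/fl. Cluster 6, led by Ccl12, Gpr84 and Rcan1, held 9.68% of Lyz2-cre and 11.2% of fl/fl microglia-like cells at 3 h and 66.1% and 64.1% of the class's Ccl12 UMIs, at 5108 and 3721 CPM. In B-cell-like cells, which should lack the gene, at most 3.45% had a UMI after thinning.

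**Figure D2:**
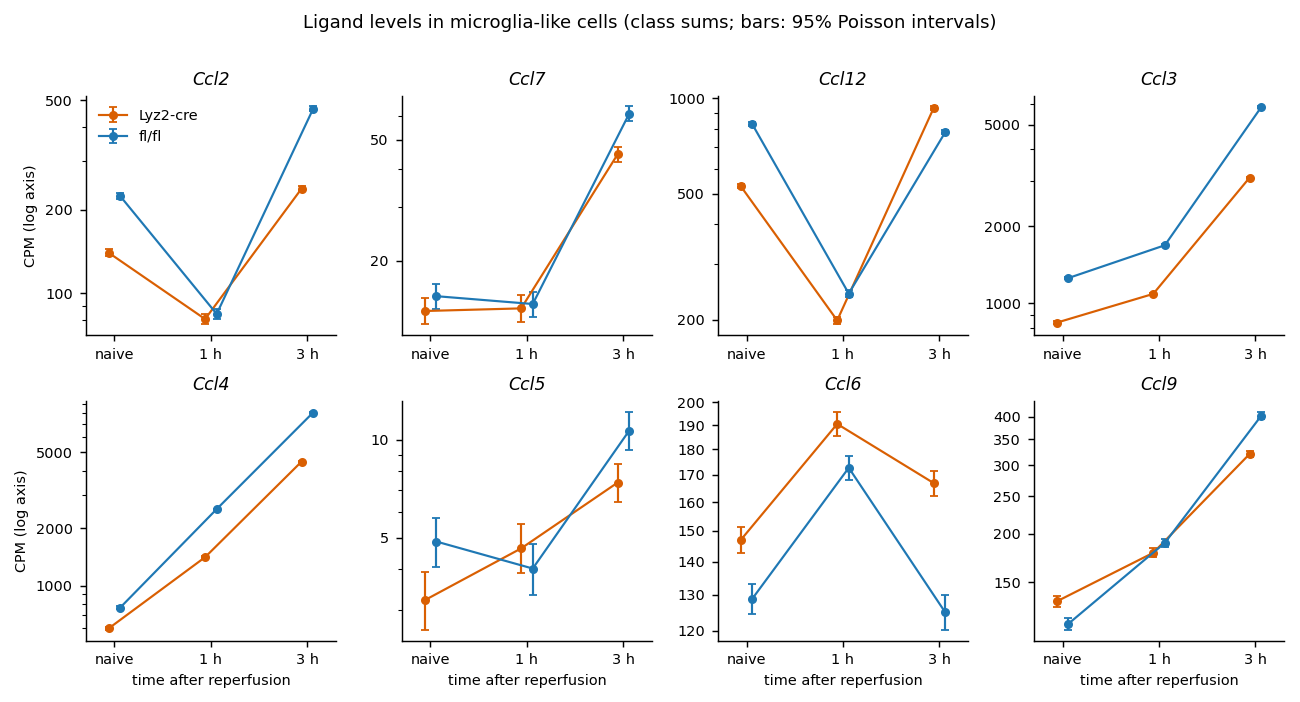
Levels of the ligands in microglia-like cells (CPM on a log axis) at naive, 1 h and 3 h, with 1 line per genotype, with 95% Poisson intervals of the class sum. Ccl3 and Ccl4 reach their highest level at 3 h, with fl/fl above Lyz2-cre at each time, Ccl2 and Ccl12 have their lowest level at 1 h, and Ccl6 varies least, between 125 and 190 CPM.

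Ccl3 and Ccl4, neighbours on the chromosome and the most abundant members, were already present in naive microglia-like cells and reached the highest levels of any member at 3 h. Ccl3, a ligand of Ccr1, was at 839, 1087 and 3101 CPM in Lyz2-cre, against 1254, 1685 and 5849 CPM in fl/fl. Ccl4, its close relative, was at 596, 1408 and 4463 CPM in Lyz2-cre, against 767, 2516 and 8072 CPM in fl/fl. Each time step was upward in each genotype, and at each time the fl/fl library was the higher. Ccl4 at 3 h was 7.49 times its naive level in Lyz2-cre and 10.5 times in fl/fl, and Ccl3 3.70 times and 4.66 times.

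Over both genotypes Ccl4 rose by 1.58 ± 0.13 at 1 h against naive on the log2 scale (edgeR adjusted p = 6.77e-05), by 3.24 ± 0.14 at 3 h against naive (edgeR adjusted p = 5.25e-07) and by 1.65 ± 0.13 at 3 h against 1 h (edgeR adjusted p = 3.28e-05), under all 13 alternatives. Ccl3 rose by 0.51 ± 0.11 at 1 h (edgeR adjusted p = 0.00885), which was lost without the Lyz2-cre naive (0.0914), fl/fl naive (0.18) or Lyz2-cre 1 h library (0.0716). Its rise of 2.15 ± 0.12 at 3 h against naive (edgeR adjusted p = 9.06e-07) held under all 13. The balance of the pair shifted with time. Microglia-like cells had 0.710, 1.295 and 1.439 Ccl4 UMIs per Ccl3 UMI in Lyz2-cre, and 0.611, 1.493 and 1.380 in fl/fl.

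More cells carried the pair at later times. Each carrying cell held more Ccl4 at each step, and more Ccl3 at 3 h only. After thinning, 32.7%, 40.3% and 52.7% of Lyz2-cre and 39.7%, 50.3% and 68.0% of fl/fl microglia-like cells had a Ccl3 UMI. Unthinned, the shares were 41.3%, 48.0% and 57.5% in Lyz2-cre and 47.7%, 57.8% and 70.7% in fl/fl. The thinned shares in B-cell-like cells were 3.45% to 7.50%, and whether these were the cells' own transcripts was not tested. Median depths were 3904.5 to 5194 UMIs in microglia-like and 2875 to 3909 UMIs in B-cell-like cells, and thinning left out 1580 microglia-like and 37 B-cell-like cells. The microglia-like cells with a Ccl4 UMI held 8.13, 13 and 32.3 of them on average in Lyz2-cre and 9.20, 20.5 and 51.0 in fl/fl. Those with a Ccl3 UMI held 10.8, 9.33 and 21.6 Ccl3 UMIs in Lyz2-cre and 13.2, 12.9 and 36.2 in fl/fl, lowest at 1 h in both.

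The pair went together in single cells of each library. Among Lyz2-cre microglia-like cells with a Ccl3 UMI 50.3%, 62.5% and 73.9% also had Ccl4 after thinning (naive, 1 h, 3 h), against 20.1%, 20.8% and 24.6% of those without. In fl/fl the shares were 52.1%, 74.1% and 84.1% with Ccl3, against 21.0%, 21.3% and 27.6% without. For Ccl12 the shares lay closer together. In Lyz2-cre 45.4%, 24.0% and 32.4% of cells with Ccl3 had Ccl12, against 40.0%, 21.3% and 27.6% without, and in fl/fl 54.6%, 22.4% and 33.3%, against 47.2%, 20.2% and 19.5%. Ccl7 was found with Ccl2. At 3 h 12.1% of Lyz2-cre cells with a Ccl2 UMI had Ccl7, against 1.38% of those without, and 17.3% of fl/fl cells, against 1.68%. Cells of 1 library are not replicates, and these shares are a description.

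Different clusters made up the microglia-like class at each time, and the ligand levels differed among them. Naive cells lay mainly in cluster 0, led by Gpr34, Tmem119 and P2ry12 (94.6% of Lyz2-cre and 92.4% of fl/fl), at 804 and 1222 CPM of Ccl3. At 1 h most cells lay in cluster 3, led by Olfml3 and Sparc (52.1% and 32.7%), with Ccl3 at 275 CPM in Lyz2-cre and 184 CPM in fl/fl, and in cluster 5, led by Rcan1 and Olfml3 (37.0% and 44.7%), at 2302 and 2715 CPM. Cluster 5 therefore carried 76.2% of the class's 1 h Ccl3 UMIs in Lyz2-cre and 70.9% in fl/fl. At 3 h cluster 19, led by Gdf15, Pmp22, Il1a and Ccl3 and without a microglia marker among its leading genes, was at 11917 CPM of Ccl3 and 17386 CPM of Ccl4 in Lyz2-cre and at 12832 and 17957 CPM in fl/fl. It held 9.22% of Lyz2-cre and 23.7% of fl/fl microglia-like cells, and 43.4% and 63.9% of their Ccl3 UMIs. Cluster 4, led by Gpr34 and Csmd3 and also from 3 h (27.1% and 21.4%), was at 249 CPM of Ccl3 in Lyz2-cre and 121 CPM in fl/fl. Cluster 16, led by the heat shock genes Hspb1 and Hspa1a (18.9% and 19.9%), was at 2325 and 4573 CPM.

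In microglia-like cells, 5 of the 8 ligands tested were called at 1 h against naive, 4 higher (Ccl3, Ccl4, Ccl6 and Ccl9) and Ccl12 lower, beside 27.8% of all genes called. The median log2 fold change of the 8 was 0.38, beside -0.02 for all 12856 genes tested. There were 5 that rose at 3 h against naive (Ccl3, Ccl4, Ccl5, Ccl7 and Ccl9) and none fell, beside 24.7% of all genes higher, with a median of 1.43 beside -0.02. Against 1 h 7 rose at 3 h and Ccl6 fell, beside 47.4% of all genes called, with a median of 1.64 beside 0.04. These 3 contrasts share libraries. Ccl17 had too few UMIs in this class to be tested. The 1 h count fell to 3 without the Lyz2-cre 1 h or the fl/fl naive library, and the 3 h against 1 h count to 5 without the fl/fl 1 h library.

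Between the genotypes, Ccl3 and Ccl4 were the only members called in microglia-like cells, beside 0.428% of all genes called, 0.0467% higher and 0.381% lower in Lyz2-cre (6 and 49 genes). Over the 3 times Ccl3 differed by -0.76 ± 0.09 on the log2 scale (n = 3 libraries per genotype, edgeR adjusted p = 0.0065) and Ccl4 by -0.74 ± 0.11 (edgeR adjusted p = 0.0219). Lyz2-cre was the lower at each of the 3 times, with ratios of 0.669, 0.645 and 0.530 for Ccl3 and 0.777, 0.560 and 0.553 for Ccl4. The Ccl3 call was lost without the Lyz2-cre naive library (0.0828) or the fl/fl naive library (0.0909). The Ccl4 call was lost without the Lyz2-cre naive (0.0558), fl/fl naive (0.0627), Lyz2-cre 1 h (0.0503) or fl/fl 1 h library (0.0522), all edgeR adjusted p. Neither was called without either naive library.

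edgeR called no genotype difference for the remaining ligands in microglia-like cells with all 6 libraries. Ccl2 was at -0.63 ± 0.24 (edgeR adjusted p = 0.509), with Lyz2-cre over fl/fl ratios of 0.624, 0.958 and 0.514 and overlapping counting intervals at 1 h, and was called without either 1 h library (-0.90, edgeR adjusted p = 0.000348 and 0.000458). Ccl12 was at -0.28 ± 0.17 (edgeR adjusted p = 0.639) and was called without either 3 h library (-0.50, edgeR adjusted p = 0.000826 and 0.00118). Ccl5 was at -0.37 ± 0.18 (edgeR adjusted p = 0.51), and was called under the stricter cell filter (-1.21, edgeR adjusted p = 0.00621) and with the Ccl genes kept in the clustering (-1.10, edgeR adjusted p = 0.018). Ccl7 was at -0.29 ± 0.10 (edgeR adjusted p = 0.347), Ccl6 at 0.20 ± 0.07 (edgeR adjusted p = 0.339) and Ccl9 at -0.13 ± 0.10 (edgeR adjusted p = 0.706). The median of the 8 ligands was -0.33, beside 0.00 for all genes. Within single clusters the genotypes stood close in some and apart in others. Ccl3 at 3 h was at 11917 CPM in Lyz2-cre and 12832 CPM in fl/fl in cluster 19, at 2325 and 4573 CPM in cluster 16 and at 249 and 121 CPM in cluster 4, and in naive cluster 0 at 804 and 1222 CPM. These values come from 1 library each and were not tested.

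Other genes moved with the pair. Among immediate early genes that tissue handling also induces, 3 of 20 were lower in Lyz2-cre microglia-like cells and none higher, beside 0.381% and 0.0467% of all genes: Egr3 (-0.66 ± 0.07, edgeR adjusted p = 0.00304), Nr4a1 (-0.58 ± 0.07, edgeR adjusted p = 0.00641) and Egr2 (-0.53 ± 0.08, edgeR adjusted p = 0.0195). Neutrophil markers in microglia-like cells summed to 309, 528 and 270 CPM in Lyz2-cre and 244, 241 and 298 CPM in fl/fl. Monocyte markers there summed to 11.5 to 32.3 CPM. The part of any of these in the Ccl3 and Ccl4 differences was not tested.

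**Figure D3:**
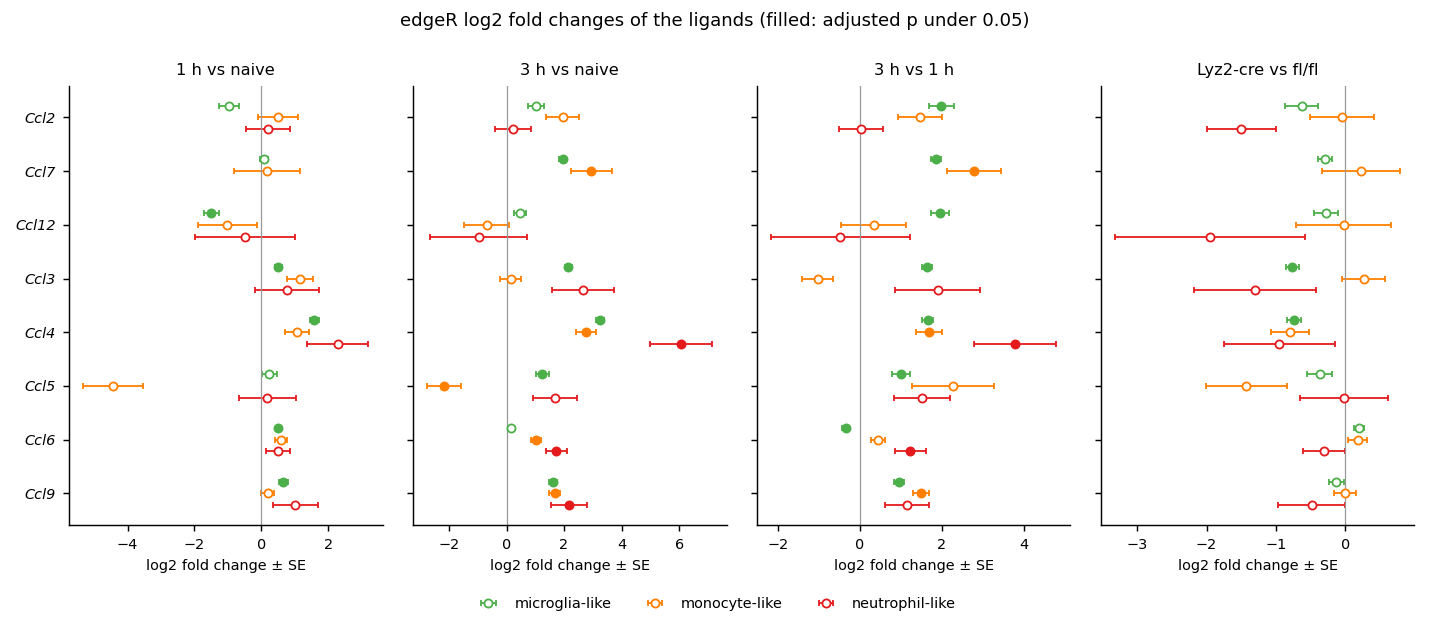
edgeR log2 fold changes (horizontal axis, with SE) of the ligands in microglia-like, monocyte-like and neutrophil-like cells for the 3 time contrasts and for Lyz2-cre over fl/fl. Filled points passed an adjusted p under 0.05. Ccl4 is filled in all 3 classes at 3 h against naive, and Ccl3 and Ccl4 in microglia-like cells are the only filled points in the genotype panel.

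Ccl6, a Ccr1 ligand, changed its source. Microglia-like cells held 50.5%, 34.9% and 17.7% of its UMIs in the Lyz2-cre libraries, against 57.9%, 56.4% and 14.8% in the fl/fl libraries, while neutrophil-like cells held 23.6%, 37.7% and 40.0%, against 18.5%, 27.2% and 51.0%. Monocyte-like cells held 40.6% in Lyz2-cre and 31.4% in fl/fl at 3 h. Neutrophil-like cells numbered 322, 1025 and 1003 in Lyz2-cre and 160, 321 and 1059 in fl/fl, and both their number and their Ccl6 level enter these shares. With cells scored as doublets left in, microglia-like cells led Ccl6 over all libraries, with 34.7%. Microglia-like cells also led it when either 3 h library was left out. In single libraries neutrophil-like cells led only in Lyz2-cre at 1 h and fl/fl at 3 h. Monocyte-like cells led narrowly in Lyz2-cre at 3 h.

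The level of Ccl6 also differed by class and time. In neutrophil-like cells Ccl6 was at 1062, 998 and 3931 CPM in Lyz2-cre, against 1528, 2556 and 2606 CPM in fl/fl, and the 3 h rise over naive was 1.73 ± 0.38 on the log2 scale (edgeR adjusted p = 0.00789). That call was lost without the Lyz2-cre naive (0.0692) or fl/fl naive library (0.106). The clusters of the class differed by time. At 3 h 91.3% of Lyz2-cre and 90.5% of fl/fl neutrophil-like cells lay in cluster 22, led by Retnlg and Cxcr2, at 4471 and 2920 CPM of Ccl6. Earlier cells lay in cluster 9, led by Retnlg and Mmp9, at 3498 and 3501 CPM in Lyz2-cre and 3527 and 3785 CPM in fl/fl (naive and 1 h), and in cluster 8, led by the granule genes Ltf, Lcn2, Ngp and Camp, at 75 to 184 CPM. Cluster 8 held 40.1% and 36.0% of Lyz2-cre and 31.2% and 12.2% of fl/fl cells at naive and 1 h.

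Monocyte-like cells had Ccl6 at 776, 1067 and 1616 CPM in Lyz2-cre, against 748, 1124 and 1094 CPM in fl/fl, a 3 h rise over naive of 1.03 ± 0.17 (edgeR adjusted p = 0.00608) that was lost without the Lyz2-cre 3 h library (0.107). In microglia-like cells it was at 147, 190 and 167 CPM in Lyz2-cre, against 129, 173 and 125 CPM in fl/fl. The 1 h libraries were the highest of each genotype, by 0.51 ± 0.08 over naive (edgeR adjusted p = 0.00176) under all 13 alternatives. Against 1 h Ccl6 fell at 3 h by 0.35 ± 0.08 (edgeR adjusted p = 0.00552), which was lost without the fl/fl 1 h library (edgeR adjusted p = 0.0677) and with doublets kept (-0.09, edgeR adjusted p = 0.372).

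Ccl9, the neighbour of Ccl6 and likewise a Ccr1 ligand in rodents, rose at 3 h in all 3 tested classes. In monocyte-like cells it was at 338, 337 and 1081 CPM in Lyz2-cre, against 354, 423 and 825 CPM in fl/fl, with both 3 h libraries above the other 4. The rise over naive was 1.67 ± 0.19 (edgeR adjusted p = 0.0015) and over 1 h 1.49 ± 0.19 (edgeR adjusted p = 0.00323), under all 13 alternatives. Within the class it was higher in cluster 13, at 516, 538 and 1216 CPM in Lyz2-cre and 567, 621 and 948 CPM in fl/fl, than in cluster 17, at 109 to 204 CPM. Cluster 13 held 29.6%, 36.2% and 81.5% of Lyz2-cre monocyte-like cells and 39.5%, 43.6% and 78.4% of fl/fl ones.

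In microglia-like cells Ccl9 was at 134, 179 and 321 CPM in Lyz2-cre, against 117, 190 and 402 CPM in fl/fl, and each step was upward in each genotype. The rises were 0.66 ± 0.13 at 1 h (edgeR adjusted p = 0.00861; lost without the Lyz2-cre 1 h library, 0.0562, or the fl/fl naive library, 0.0777) and 1.61 ± 0.13 at 3 h against naive (edgeR adjusted p = 7.53e-05, under all 13 alternatives). In neutrophil-like cells it had 8, 73 and 125 UMIs in Lyz2-cre and 16, 30 and 87 UMIs in fl/fl, and its 3 h rise over naive (2.17 ± 0.64, edgeR adjusted p = 0.0429) was lost without any 1 of the Lyz2-cre libraries or the fl/fl 1 h library and with library totals in place of TMM, with edgeR adjusted p up to 0.177. Microglia-like cells held 76.4%, 74.4% and 52.6% of all Ccl9 UMIs in Lyz2-cre and 78.8%, 87.8% and 62.3% in fl/fl, and monocyte-like cells 41.8% and 31.0% at 3 h.

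In neutrophil-like cells Ccl4 had the largest fold change of the 7 ligands tested at 3 h against naive. It had 56, 550 and 10322 UMIs in Lyz2-cre and 79, 557 and 5040 UMIs in fl/fl, or 28.3, 92.2 and 3670 CPM, against 107, 560 and 1460 CPM. Both 3 h libraries stood above the other 4, and at 3 h 45.4% of Lyz2-cre and 32.6% of fl/fl neutrophil-like cells had a UMI after thinning (45.2% and 37.1% unthinned), against at most 9.17% of B-cell-like cells. Median depths of neutrophil-like cells were 2251 to 4546.5 UMIs, and thinning left out 620 of them. The rise over naive was 6.07 ± 1.08 (edgeR adjusted p = 0.0149), lost without the Lyz2-cre naive (0.0509) or Lyz2-cre 1 h library (0.102) and with no filter on low counts (0.0772). Over 1 h it was 3.79 ± 1.00 (edgeR adjusted p = 0.0468), lost without the Lyz2-cre 1 h (0.487) or fl/fl 1 h library (0.0955), with no filter (0.161) and with RLE size factors (0.06).

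This Ccl4 came from cluster 22, which held 99.7% of the class's 3 h UMIs in Lyz2-cre and 99.0% in fl/fl. Ccl3 was at 39.4, 76.9 and 664 CPM in Lyz2-cre, against 291, 416 and 296 CPM in fl/fl (3 h against naive 2.66 ± 1.08, edgeR adjusted p = 0.147). Neutrophil-like cells at 3 h had 5.526 Ccl4 UMIs per Ccl3 UMI in Lyz2-cre and 4.932 in fl/fl, and microglia-like cells 1.439 and 1.380. The part of microglial transcripts in the neutrophil-like ratios was not tested. Microglia markers in neutrophil-like cells summed to 567, 1510 and 569 CPM in Lyz2-cre, against 3539, 3285 and 317 CPM in fl/fl, and their part in the Ccl3 levels was not tested.

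In monocyte-like cells Ccl4 was at 22.1, 82.4 and 217 CPM in Lyz2-cre, against 82.8, 95.6 and 318 CPM in fl/fl, with both 3 h libraries above the other 4. Its rise over naive of 2.75 ± 0.35 (edgeR adjusted p = 0.00262) held under all 13 alternatives. The rise over 1 h of 1.68 ± 0.32 (edgeR adjusted p = 0.0153) was lost without the Lyz2-cre 1 h (0.155), Lyz2-cre 3 h (0.18) or fl/fl 1 h library (0.0749). Ccl3 there was at 92.8, 354 and 112 CPM in Lyz2-cre, against 137, 149 and 105 CPM in fl/fl, and edgeR called no time difference with all 6 libraries. Its lower level at 3 h than at 1 h (-1.03 ± 0.37, edgeR adjusted p = 0.11) was called by DESeq2 (DESeq2 adjusted p = 0.0408) and by edgeR without the fl/fl 1 h (9.04e-05), Lyz2-cre naive (0.0464) or fl/fl naive library (0.0435). Its level at 1 h against naive (1.17 ± 0.39, edgeR adjusted p = 0.278) was called without the fl/fl 1 h library (0.000824) and with doublets kept (0.0306), and that at 3 h against naive (0.14 ± 0.38) with doublets kept (1.22, edgeR adjusted p = 0.00688). Neutrophil markers in monocyte-like cells summed to 574, 2099 and 932 CPM in Lyz2-cre, against 155, 135 and 3224 CPM in fl/fl, and their part in the Ccl4 levels was not tested.

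**Figure D4:**
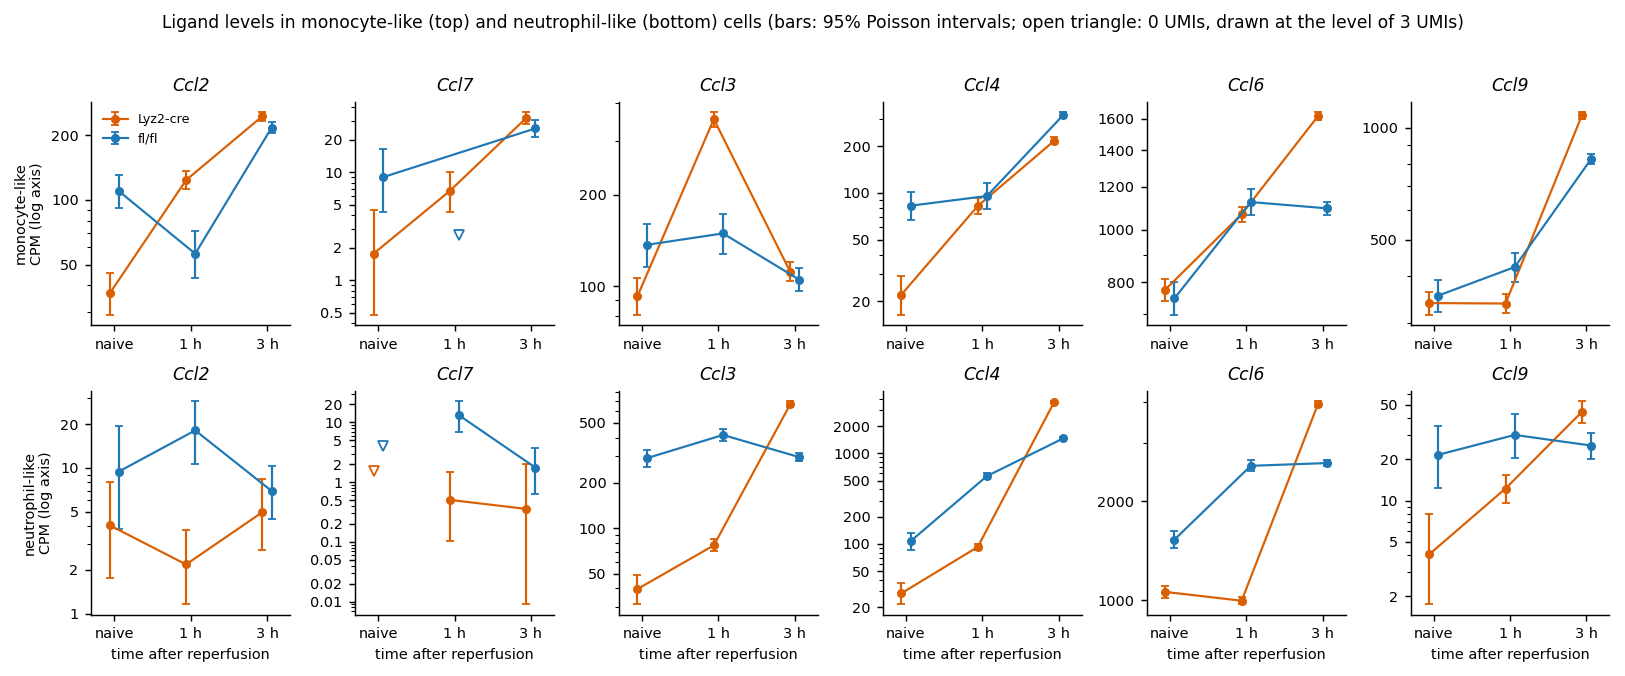
Levels of selected ligands in monocyte-like (top) and neutrophil-like (bottom) cells (CPM on a log axis) at naive, 1 h and 3 h for each genotype, with 95% Poisson intervals of the class sum. Open triangles mark 0 UMIs, drawn at the level of 3 UMIs, and lines pass over them. In neutrophil-like cells Ccl4 reaches 3670 CPM in Lyz2-cre and 1460 CPM in fl/fl libraries at 3 h, and in monocyte-like cells Ccl9 reaches 1081 and 825 CPM.

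In monocyte-like cells 8 ligands were tested. Against naive 4 rose at 3 h (Ccl4, Ccl6, Ccl7 and Ccl9) and Ccl5 fell, beside 18.7% of all genes called, 9.18% higher and 9.48% lower, with a median of 1.35 beside -0.03 for all genes. Without the Lyz2-cre 3 h library 2 were called and without the fl/fl 3 h library 3. Against 1 h 3 rose at 3 h, beside 14.5% of all genes called, 7.45% higher and 7.03% lower. Without the Lyz2-cre 3 h library 1 was called and without either naive library 6. At 1 h against naive edgeR called 0, beside 0.153% of all genes, with 4 at an unadjusted p under 0.05 (Ccl3, Ccl4, Ccl5 and Ccl6) and 0 by DESeq2; 2 were called without the Lyz2-cre naive library and 1 without the fl/fl naive or either 1 h library. Between genotypes edgeR called 0, beside 0.0102%, with 2 at an unadjusted p under 0.05 (Ccl4 and Ccl5) and 0 by DESeq2.

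In neutrophil-like cells 7 ligands were tested. Against naive 3 rose at 3 h (Ccl4, Ccl6 and Ccl9) and none fell, beside 16.9% of all genes higher, with a median of 1.73 beside -0.07. Without the Lyz2-cre naive library 0 were called, without the Lyz2-cre 1 h library 1 and without the fl/fl 3 h library 5. Against 1 h 2 rose at 3 h (Ccl4 and Ccl6), beside 27% of all genes called, 15.7% higher and 11.2% lower. Without the Lyz2-cre 1 h library 0 were called, without the fl/fl 1 h or fl/fl naive library 1 and without the fl/fl 3 h library 5. At 1 h against naive edgeR called 0, beside 0.442% of all genes, with 0 at an unadjusted p under 0.05 and 0 by DESeq2, and 1 was called without either 3 h library. Between genotypes edgeR called 0, beside 0.0246%, with 1 at an unadjusted p under 0.05 (Ccl2) and 0 by DESeq2. When either 3 h library was left out, Ccl2, Ccl3, Ccl4, Ccl9 and Ccl12 were called lower in Lyz2-cre. How many of all genes were called likewise is not given here. Microglia markers in neutrophil-like cells summed to 567 and 1510 CPM in Lyz2-cre at naive and 1 h. In fl/fl they summed to 3539 and 3285 CPM, and their part in these differences was not tested.

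Ccl5 belonged to lymphoid cells. NK-cell-like cells held 59.2%, 76.0% and 79.7% of its UMIs in Lyz2-cre and 31.7%, 62.0% and 51.0% in fl/fl, and T-cell-like cells 36.6%, 22.6% and 14.4% in Lyz2-cre and 62.3%, 34.1% and 44.0% in fl/fl. Its level in NK-cell-like cells was 13133, 22989 and 18942 CPM in Lyz2-cre, against 8624, 23021 and 14899 CPM in fl/fl, lowest in the naive library of each genotype. In T-cell-like cells it was 4435, 6253 and 2564 CPM in Lyz2-cre, against 3851, 3102 and 4774 CPM in fl/fl, with no order of times that both genotypes shared. NK-cell-like cells numbered 52 to 125 a library, and these classes were not tested.

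A Ccl5 UMI was found in 88.5% to 93.3% of NK-cell-like cells after thinning (92.3% to 96.6% unthinned) and in 0.476% to 0.954% of microglia-like cells, at median depths of 3611 to 5484 and 3904.5 to 5194 UMIs. In B-cell-like cells the thinned share was 0% to 0.833% and the level 0 to 3.50 CPM, and the microglia-like level was 3.21 to 10.7 CPM. At 3 h cluster 6 was at 20.1 CPM in Lyz2-cre and 18.2 CPM in fl/fl and cluster 4 at 2.92 and 4.37 CPM, and in fl/fl 24 cells of cluster 2.4 held 54 of the class's 222 UMIs. Its 3 h rise in the class (1.25 ± 0.22 over naive, edgeR adjusted p = 0.00166) turned to -0.01 under the stricter cell filter and to -0.33 with doublets kept. Ccl5 in monocyte-like cells fell by 2.17 ± 0.60 at 3 h against naive (edgeR adjusted p = 0.0481), on 32 and 46 UMIs (14.1 and 6.63 CPM) at naive and 3 h in Lyz2-cre and 103 and 46 UMIs (92.7 and 9.09 CPM) in fl/fl, and the call was lost in 9 of 13 alternatives. In the fl/fl naive library 1 monocyte-like cell held 80 of the 103 Ccl5 UMIs. T-cell markers in monocyte-like cells summed to 0.442 to 22.5 CPM and were highest in the fl/fl naive library, where Ccl5 was also highest, and their part was not tested. NK-cell-like cells also held Ccl4, at 1165, 718 and 922 CPM in Lyz2-cre and 1293, 547 and 497 CPM in fl/fl.

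Ccl17 had few UMIs in naive brain and more in dendritic cells after reperfusion. The cDC-like cells had 13, 74 and 1721 Ccl17 UMIs in Lyz2-cre and 11, 305 and 183 UMIs in fl/fl, or 24.8, 236 and 2030 CPM, against 25.9, 930 and 344 CPM. The naive cells lay mainly in another cluster, 12.3 (40 of 52 in Lyz2-cre and 31 of 41 in fl/fl), than the 3 h cells, of which 0 in Lyz2-cre and 2 in fl/fl lay there. Both later libraries of each genotype stood above the naive one, but the highest was the 3 h library in Lyz2-cre and the 1 h library in fl/fl. The 95% Poisson intervals were 1936 to 2129 CPM in the Lyz2-cre 3 h library and 296 to 398 CPM in the fl/fl 3 h library. These 2 values come from 1 library each, in which 21 of 80 and 4 of 50 cDC-like cells held a Ccl17 UMI.

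At 3 h 98.0% of the class's Ccl17 UMIs in Lyz2-cre and 99.5% in fl/fl lay in cluster 12.4, whose leading genes include Ccl17, Ccl22 and Ccr7. It had 28 cells with 1687 UMIs (5881 CPM) in Lyz2-cre and 20 cells with 182 UMIs (904 CPM) in fl/fl, while another cluster of the class had 43 cells in Lyz2-cre and 22 in fl/fl with 0 UMIs. Cells without a class name held 28 Ccl17 UMIs in the Lyz2-cre 3 h library, against 56 in the fl/fl 3 h library.

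**Figure D5:**
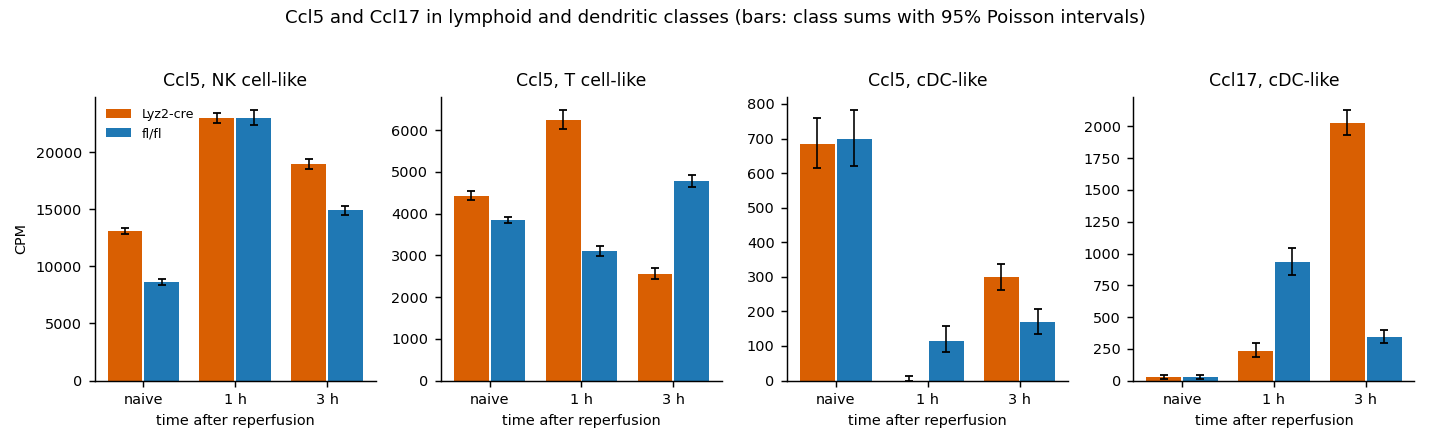
Levels of Ccl5 in NK-cell-like, T-cell-like and cDC-like cells and of Ccl17 in cDC-like cells (CPM from 0) at naive, 1 h and 3 h, Lyz2-cre left of fl/fl, with 95% Poisson intervals of the class sum. Ccl5 in NK-cell-like cells is lowest in the naive libraries, and Ccl17 in cDC-like cells is highest in the Lyz2-cre 3 h library, at 2030 CPM.

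Some receptors for these ligands changed in the same classes. In microglia-like cells the share called was near that of all genes at 3 h against naive, and below it at 3 h against 1 h. Of the 14 listed CC receptors and scavengers 8 were tested in microglia-like cells. At 1 h against naive 2 rose, Ccr1 (2.21 ± 0.17, edgeR adjusted p = 0.000454) and Ccrl2 (1.79 ± 0.09, edgeR adjusted p = 2.26e-06), and 2 fell, Ccr2 (-1.36 ± 0.15, edgeR adjusted p = 0.00024) and Ccr9 (-1.85 ± 0.47, edgeR adjusted p = 0.0155), beside 27.8% of all genes called. Ccr1, the receptor of Ccl3, Ccl6 and Ccl9, was at 9.80, 51.6 and 42.6 CPM in Lyz2-cre, against 21.4, 77.4 and 55.6 CPM in fl/fl. Later, 3 rose and 1 fell at 3 h against naive, beside 48.1% of all genes called, with Ccr7 at 3, 4 and 45 UMIs in Lyz2-cre and 1, 14 and 61 UMIs in fl/fl, and at 3 h against 1 h 2 rose and 1 fell, beside 47.4% of all genes called.

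In monocyte-like cells Ccr1 rose at 3 h against naive by 4.37 ± 0.30 (edgeR adjusted p = 0.000145) and Ccr2 by 1.04 ± 0.14 (edgeR adjusted p = 0.00228), while Ccrl2 was at -0.78 ± 0.24 (edgeR adjusted p = 0.0532), beside 9.18% of all genes higher and 9.48% lower. Ccrl2 was at 27.0, 49.6 and 16.1 CPM in Lyz2-cre, against 46.8, 50.9 and 19.4 CPM in fl/fl. Ccr1 in monocyte-like cells was at 37.6, 187 and 825 CPM in Lyz2-cre, against 53.1, 376 and 739 CPM in fl/fl. Ccr1 was the 1 receptor called at 1 h against naive (2.65 ± 0.28, edgeR adjusted p = 0.0221). At 3 h against 1 h Ccr1 and Ccr2 rose and Ccrl2 fell. In neutrophil-like cells Ccr1 (2.68 ± 0.31, edgeR adjusted p = 0.000273) and Ccrl2 (2.20 ± 0.46, edgeR adjusted p = 0.0117) rose at 3 h against naive, beside 16.9% of all genes higher. Ccr1 in neutrophil-like cells was at 336, 441 and 2178 CPM in Lyz2-cre, against 407, 744 and 1547 CPM in fl/fl. Ccr1 also rose there at 3 h against 1 h.

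Of the 12 other CC ligands 4 were tested in microglia-like cells and 1 in each of the other 2 classes. Ccl24 rose at 1 h (0.75 ± 0.15, edgeR adjusted p = 0.00594) and fell at 3 h against 1 h (-0.85 ± 0.16), and Ccl22 was called higher at 3 h against naive and against 1 h, beside 24.7% and 25.4% of all genes higher. Ccl22, like Ccl17 a dendritic cell ligand of Ccr4, had 0, 0 and 19 UMIs in Lyz2-cre and 0, 2 and 18 UMIs in fl/fl. None was called in the other classes.

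Among genes of cytokine and Toll-like receptor signalling, 11 of 18 tested rose at 3 h against naive in microglia-like cells and fewer than that in the other 2 classes. In microglia-like cells 1, Irak1, fell (median 0.54 beside -0.02, and beside 24.7% of all genes higher and 23.4% lower), and the rises were led by Il1b at 4.13 ± 0.52 (edgeR adjusted p = 0.0185) and Cd14, a co-receptor for bacterial products, at 2.67 ± 0.18. At 1 h 4 rose and 1 fell, beside 27.8% of all genes called, and at 3 h against 1 h 9 rose, beside 25.4% higher, among them Tnf at 1.69 ± 0.19. Tnf was at 42.2, 41.2 and 132 CPM in Lyz2-cre, against 88.7, 53.3 and 181 CPM in fl/fl. Of 17 tested in monocyte-like cells 7 rose and Il1a fell at 3 h against naive, beside 18.7% of all genes called, and 5 rose and Tnf fell against 1 h, beside 14.5%. Of 16 in neutrophil-like cells 7 rose and Tnf fell in each of these contrasts, beside 27.6% and 27% of all genes called, with Cd14 at 6.49 ± 0.70 and Tlr4 at 3.95 ± 0.33 against naive. Tnf in neutrophil-like cells was at 35.9, 27.0 and 9.96 CPM in Lyz2-cre, against 29.7, 27.1 and 11.9 CPM in fl/fl (3 h against naive -1.25 ± 0.33, edgeR adjusted p = 0.0189).

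NF-kB is a transcription factor of inflammatory genes that also turns on its own inhibitors, and the genes of both split by time in microglia-like cells. Of 14 tested 3 rose and 3 fell at 1 h against naive, beside 27.8% of all genes called, with Nfkbiz at -2.48 ± 0.09 (edgeR adjusted p = 8.56e-08) and Nfkbid at 1.51 ± 0.10. At 3 h 9 rose and 3 fell against naive, with Bcl3 at 3.83 ± 0.54 (edgeR adjusted p = 0.014), beside 48.1% of all genes called, and 9 rose and none fell against 1 h, beside 47.4%. In neutrophil-like cells 10 of 14 rose at 3 h against naive and 9 against 1 h, none falling, beside 16.9% and 15.7% of all genes higher. In monocyte-like cells 2 rose and 4 fell against naive, beside 18.7% of all genes called, and 0 were called by edgeR against 1 h, beside 14.5% (2 at an unadjusted p under 0.05, 0 by DESeq2). Between genotypes 1 was lower in Lyz2-cre microglia-like cells, beside 0.381% of all genes lower, Nfkbiz at -0.49 ± 0.07 (edgeR adjusted p = 0.0144).

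The immediate early genes went down in microglia-like cells at 1 h, when Ccl4 rose. Of 20 tested 17 fell and 2 rose against naive (median -1.35 beside -0.02), beside 13.4% of all genes lower and 14.5% higher, with Fosb at -2.84 ± 0.11 (edgeR adjusted p = 3.38e-07), Egr1 at -1.92 ± 0.10 and Nr4a1 at 2.75 ± 0.09. Fosb was at 983, 142 and 236 CPM in Lyz2-cre, against 1156, 134 and 209 CPM in fl/fl. At 3 h 4 rose and 12 fell against naive, beside 24.7% and 23.4% of all genes, and 13 rose against 1 h, beside 25.4%, with Atf3 at 1.93 ± 0.14. In monocyte-like cells 2 rose and 6 fell at 3 h against naive, beside 9.18% and 9.48% of all genes, and 3 rose against 1 h, beside 7.45%. In neutrophil-like cells 11 rose at 3 h against naive and 9 against 1 h, beside 16.9% and 15.7% of all genes higher, with Ier3 at 4.77 ± 0.49 against naive. The list includes genes that cell isolation raises, and their part in the ligand levels, naive ones included, was not tested.

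Of 9 proteases that trim chemokines 5 were tested in microglia-like cells: edgeR called 0 at 1 h, beside 27.8% of all genes (2 at an unadjusted p under 0.05, 0 by DESeq2), Mmp8 rose (2.11 ± 0.63, edgeR adjusted p = 0.0331) and Mmp2 fell (-0.88 ± 0.11) at 3 h against naive, beside 48.1% called, and 2 fell at 3 h against 1 h, beside 22% lower. In monocyte-like cells, of 6 tested, Mmp8 rose (4.08 ± 0.28) and Ctsg (-4.37 ± 0.31) and Elane (-4.23 ± 0.52) fell at 3 h against naive, beside 18.7% of all genes called, and 1 rose and 2 fell against 1 h, beside 14.5%. In neutrophil-like cells, of 3 tested, Mmp9 fell at 3 h against naive (-1.24 ± 0.30, edgeR adjusted p = 0.0123), beside 10.6% of all genes lower.

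In the list comparisons not given above edgeR called 0 genes. Between genotypes the counts at an unadjusted p under 0.05 in microglia-like cells were 3 receptors, 7 cytokine and Toll-like receptor genes and 0 in each of the other ligands and the proteases, and DESeq2 called 1, 2, 0 and 0. In monocyte-like cells at 1 h, 4 cytokine, 8 NF-kB, 5 immediate early and 2 protease genes had an unadjusted p under 0.05, and DESeq2 called 1, 0, 1 and 1. For the genotypes in the same class DESeq2 called 0 in every list, with 1 receptor, 2 cytokine, 2 NF-kB, 3 immediate early and 3 protease genes at an unadjusted p under 0.05. In neutrophil-like cells at 1 h, DESeq2 called 1 receptor, 2 cytokine genes and 1 immediate early gene, with 2 receptors, 3 cytokine, 1 NF-kB and 5 immediate early genes at an unadjusted p under 0.05. For the genotypes there DESeq2 called 1 immediate early gene, with 2 receptors, 3 NF-kB and 10 immediate early genes at an unadjusted p under 0.05. Among the proteases at 3 h against 1 h in that class 1 had such a p and DESeq2 called 0.

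The genes most like each ligand were found by Pearson's r of log2(CPM + 1) over 42 class-by-library sums, among 8120 genes. The points share libraries, so r is a description. Ccl3 and Ccl4 were among each other's nearest 3 (r = 0.853), with Ctsd, a lysosomal protease, nearest to Ccl3 (0.882). Ccl7 was nearest to Ccl2 (0.842), while Ccl2 was nearest to Rab1a (0.903). Ccl12 was nearest to Trem2, a receptor of microglia (0.872), Ccl6 to Alox5ap, which serves leukotriene synthesis (0.958), and Ccl9 to Ssfa2 and Clec4a3 (0.889 each). Ccl5 was nearest to the NK-cell receptor gene Klre1 (0.933) and Ccl17 to Fgfr1 (0.883), with the dendritic cell lectin gene Mgl2 also among its nearest 3 (0.851).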

How the data were processed

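The deposited files were 1 matrix of UMI counts per library with its barcode and gene lists; per the file headers they are raw whole-number counts of genes by barcodes, and the submitters' processing notes name Cell Ranger 3.0.2 and the mm10 build. The sources used here give no other step that the authors took before they deposited the counts. All computing from there was done in Python 3.11.15 (scanpy 1.11.5, numpy 2.4.6, scipy 1.17.1, matplotlib 3.10.9) and R 4.3.3 (edgeR 4.0.16, limma 3.58.1, DESeq2 1.42.0). The 9 members, the gene lists and the tests were chosen with earlier results of these data known.

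Barcodes with under 300 genes or over 10% mitochondrial UMIs were dropped. Doublets were scored with Scrublet, whose own threshold marked 11 barcodes in all and was set aside, and the highest-scoring barcodes were removed at 0.8% per 1000 barcodes. Clustering used 2000 variable genes, every Ccl gene being left out of them, with 30 principal components, 15 neighbours and Leiden resolution 1, which gave 23 clusters, some of them split again. To be named for a class a cluster needed 3 of its markers, each in 10% of the cells or more, and could not have more of another class's markers than its own among the top 10 genes.

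UMIs were summed per class and library and tested where every library had at least 20 cells, which held for the microglia-like, monocyte-like and neutrophil-like classes. Border-associated macrophage-like, NK-cell-like, T-cell-like, B-cell-like and cDC-like classes also reached that number and were described only. The test was edgeR's quasi-likelihood F-test (TMM factors, filterByExpr, robust), with genotype and time as additive terms over all 6 libraries, 2 residual degrees of freedom and Benjamini-Hochberg adjustment over all genes of the class (12856, 9777 and 8143), called at 0.05. The code was tested on simulated data first. Alternatives were DESeq2, RLE factors, library totals, no filter on low counts, a stricter cell filter (500 genes, 5%), doublets kept, clustering with Ccl genes, and leaving out each library, 13 in all. When a library is left out, the time term fits the other library of that time, which then says nothing of genotype. For the genotype contrast, leaving out either library of a time is therefore nearly the same check, and the 13 are not independent. CPM are class sums per 1000000 UMIs of the class, with 95% Poisson intervals, the widest in microglia-like cells reaching 10.3% of the CPM for Ccl7, 21.9% for Ccl5 and at most 4.15% for the other 6 ligands. Shares of cells were also taken after thinning each cell to 2000 UMIs, leaving out shallower cells. Named genes were all 9 members in each class with at least 5% of their UMIs, the 3 genes most like each member among those with a mean of at least 10 CPM, and up to 4 called genes a list by size of change. Cluster leading genes and other values outside this rule were chosen after the values were seen. For 1 gene of the receptor list the result is not reported here.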

Additional observations from a re-analysis of the deposited data

Results flagged for a closer look

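In 5 cases the libraries of the genotypes moved in opposite directions over the same interval, which was seen in single libraries and not tested as a difference. In microglia-like cells the 3 h level of Ccl12 over its naive level was 1.762 in Lyz2-cre and 0.9438 in fl/fl libraries. In monocyte-like cells the 1 h level of Ccl2 over naive was 3.366 in Lyz2-cre and 0.5115 in fl/fl, on 421 and 83 UMIs in Lyz2-cre and 64 and 122 UMIs in fl/fl at 1 h and naive, and the 3 h level of Ccl12 over naive was 1.802 in Lyz2-cre and 0.1829 in fl/fl. In neutrophil-like cells the 3 h level over the 1 h level was 5.233 in Lyz2-cre and 0.05376 in fl/fl for Ccl12, and 8.634 and 0.7119 for Ccl3. These Ccl12 values rest on 15 and 37 UMIs in Lyz2-cre and 59 and 11 UMIs in fl/fl at 1 h and 3 h. In the fl/fl 1 h library the highest cell for each ligand held 38 of the 59 Ccl12 UMIs and 139 of the 414 Ccl3 UMIs. Microglia markers in fl/fl neutrophil-like cells summed to 3285 CPM at 1 h and 317 CPM at 3 h, and in Lyz2-cre to 1510 and 569 CPM, and their part in the last 2 cases was not tested.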

How the results depend on the processing

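Among the ligand fold changes per class and contrast, 72 to 91 kept their side of the threshold under a given alternative, and their direction where they were called. Calls held under all 13 alternatives for Ccl4 in microglia-like cells in the 3 time contrasts, for Ccl3, Ccl7 and Ccl9 there at 3 h against naive and against 1 h, for Ccl6 there at 1 h against naive, and in monocyte-like cells for Ccl9 in both 3 h contrasts and Ccl4 at 3 h against naive. Counts of ligands called with each library left out ran in microglia-like cells from 3 to 5 at 1 h against naive, 5 to 7 at 3 h against naive, 5 to 9 at 3 h against 1 h and 0 to 3 between genotypes; in monocyte-like cells 0 to 2, 2 to 5, 1 to 6 and 0 to 0; and in neutrophil-like cells 0 to 1, 0 to 5, 0 to 5 and 0 to 6. The leading class held for 8 to 9 of the 9 ligands, and that of Ccl6 changed with doublets kept and without either 3 h library. In monocyte-like cells 3 were called at 1 h against naive with doublets kept and 1 with no filter on low counts, and at 3 h against naive 3 by DESeq2 and 3 with no filter. In neutrophil-like cells 1 was called at 3 h against 1 h with RLE factors and 1 with library totals, and 1 between genotypes with no filter. Among changes called with all 6 libraries or under the alternative, signs turned for Ccl5 in microglia-like cells under the stricter cell filter (-0.62 at 1 h and -0.012 at 3 h against naive) and with doublets kept (-0.33 at 3 h against naive and -0.14 at 3 h against 1 h), and for Ccl12 in neutrophil-like cells without the fl/fl 3 h library (left-out range -4.02 to 1.46 at 3 h against naive and -3.52 to 1.96 at 3 h against 1 h); the cause was not tested. Signs of differences called in neither also turned, such as Ccl2 and Ccl7 in monocyte-like cells at 1 h against naive (0.50, range -0.55 to 1.59, and 0.16, range -6.69 to 1.61) and Ccl3 in neutrophil-like cells at 3 h against 1 h (1.90, down to -0.14). Library totals moved the median of all genes by over 0.1 on the log2 scale, to -0.13 at 1 h and -0.11 at 3 h against naive in microglia-like cells, -0.25 and -0.16 at 3 h against naive and 1 h in monocyte-like cells and -0.41 and -0.28 in neutrophil-like cells, with -0.12 between genotypes there. They also moved the numbers of genes higher and lower, to 1125 and 2694 (from 1860 and 1718 with TMM) at 1 h and 2564 and 3741 (3181 and 3009) at 3 h against naive in microglia-like cells, 15 and 47 (6 and 49) between genotypes there, 560 and 1503 (898 and 927) and 511 and 1073 (728 and 687) at 3 h against naive and 1 h in monocyte-like cells, and 784 and 1292 (1377 and 867) and 659 and 941 (1282 and 914) in neutrophil-like cells. Where edgeR called 3578 genes at 1 h and 55 between genotypes in microglia-like cells, DESeq2 called 2132 and 123, and 292 differed between genotypes with no filter. At 3 h against naive and 1 h DESeq2 called 1180 and 829 genes where edgeR called 1825 and 1415 in monocyte-like cells, and 1465 and 1277 where edgeR called 2244 and 2196 in neutrophil-like cells. No paired analysis was possible because each group has 1 library and the labels give no number that joins libraries across groups. Few UMIs limit Ccl17 in naive brain, Ccl7 in naive brain and at 1 h, and Ccl5 in myeloid classes.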

Other observations

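A few mast cell or basophil-like cells had high levels of Ccl3 and Ccl4. In the Lyz2-cre 1 h library 20 such cells held 778 Ccl3 and 876 Ccl4 UMIs, 2.26% and 2.04% of the library's, at 3805 and 4285 CPM, above the microglia-like levels of 1087 and 1408 CPM in the same library. The 2 such cells of the fl/fl naive library held 171 Ccl3 and 64 Ccl4 UMIs among 12339 UMIs in all, a larger part than in the Lyz2-cre 1 h cells. The 3 of the Lyz2-cre naive library held 71 and 21 among 55067, and the 2 of the fl/fl 1 h library held 0 of either. The other libraries had at most 3 such cells each, so no comparison was made.

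Border-associated macrophage-like cells also had more Ccl9 and Ccl4 at 3 h than in naive brain. Ccl9 was at 64.9, 312 and 1204 CPM in Lyz2-cre and 69.3, 259 and 1173 CPM in fl/fl at naive, 1 h and 3 h, and Ccl4 at 266, 203 and 3611 CPM in Lyz2-cre and 620, 928 and 1523 CPM in fl/fl. These sums come from 21 to 49 cells of 1 library each and were not tested. In cDC-like cells Ccl9 was at 336, 510 and 612 CPM in Lyz2-cre and 224, 503 and 556 CPM in fl/fl, and Ccl5 at 684, 0 and 298 CPM in Lyz2-cre and 698, 116 and 169 CPM in fl/fl.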
